A study of Homo sapiens with 8 samples.

Results

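Hepatocyte identity is maintained by a small set of liver-enriched transcription factors (TFs), and 9 of them were examined here in human hepatic cells made to express the epithelial TF GRHL2. The 9 genes were chosen by name, as HNF4A, FOXA1, FOXA2, FOXA3, CEBPA, NR1H4, NR5A2, NR0B2 and PROX1, and all 9 of 9 were found among the 17561 genes of the deposited table. RNA-seq was performed on HepG2, a cell line derived from a human liver tumor. Cells received either pGRHL2, a plasmid carrying flag-tagged GRHL2 under an EEF1A1 promoter together with enhanced green fluorescent protein, or the vector pcDNA3, and were harvested 48 h later. There were 4 libraries per plasmid, with replicate numbers 1 to 4, described as independent replicates, and cells of both groups were grown on gelatin with insulin and dexamethasone. The plasmids therefore differed in more than the GRHL2 insert, and transfection was transient, so that each library averages over transfected and untransfected cells.

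HNF4A is a nuclear receptor that binds DNA as a homodimer and sustains the expression of many hepatocyte secretory and metabolic genes. The FOXA proteins are pioneer factors able to engage closed chromatin at liver enhancers, and C/EBPα, encoded by CEBPA, is a leucine zipper factor linked to the differentiated, non-proliferating state. NR1H4 (FXR) is the bile acid receptor, NR5A2 (LRH-1) activates bile acid synthesis genes, and NR0B2 (SHP) is an atypical receptor without a DNA-binding domain that FXR induces and that represses LRH-1 and HNF4A. PROX1 is a homeobox factor needed for hepatoblast expansion, and it acts as a corepressor of HNF4A and LRH-1. These factors occupy each other's regulatory regions and their combined activity is dampened when hepatocytes turn into cholangiocytes, which is why their mRNAs were compared between the plasmids.

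The deposited values are on a log2 scale per transcript length, and a difference of 1 corresponds to a doubling. Read counts were not analysed here, which leaves the sequencing depth unknown and counting error out of reach. When libraries sharing a number were averaged, gene by gene, all 4 averages were identical in each of 17561 genes, and the libraries were therefore treated as 4 pairs. Within a pair the values mirror each other around the mean of the gene, and variation in level between pairs is not contained in these values. The groups of a gene therefore fail to overlap exactly when all 4 pairs differ in the same direction. GRHL2 itself lay between 16.22 and 16.87 in pGRHL2 and between 6.61 and 7.25 in pcDNA3. Its log2 fold change (log2 FC, pGRHL2/pcDNA3) was 9.48 ± 0.57 (SD over 4 pairs), and the groups did not overlap. The 8 hepatocyte markers, most of them secreted plasma proteins, had means from 9.83 for TTR to 17.11 for AFP, a gene of fetal liver and liver tumors. Some genes of mature hepatocyte metabolism were low, whereas others were not, such as MTTP with a mean of 7.46. Of 16 HNF4A target genes in the table, 13 averaged at least 5, and the median level of the 16 was 8.52. The low genes given here are examples. Means were 2.06 for PCK1 (gluconeogenesis), 2.99 for ARG1 (urea cycle), 3.39 for CYP7A1 (bile acid synthesis) and 1.93 for SLC10A1 (bile acid uptake). The label names HepG2, a tumor line, rather than mature hepatocytes. Of the 6 cholangiocyte markers, KRT19, SPP1 and EPCAM were also high, with means of 13.90, 13.74 and 11.61. SOX9 had a mean of 9.57 and KRT7 of 5.35, the latter above 40.5% of genes, and CFTR, at -1.07, was among the lowest genes. Of 8 markers of other liver cells 4 were in the table, and their means did not exceed 5.82.

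The promoters of the members around which the results turn are shown first, to let the reader see what the region before each start site looks like. They are FOXA1, whose groups were the only ones that did not overlap, FOXA3, which had the largest log2 FC in absolute value, NR1H4, which differed most between pairs, and HNF4A, the most abundant member. Each line gives the 250 bases before a RefSeq start site (build GRCh38.p14), 5′ to 3′ on the strand of the gene. Capitals mark the letters GTTAAT or their reverse complement, which are the core of a binding site for HNF1 factors. The coordinates are chr14:37595250-37595499 on the minus strand for FOXA1, chr19:45864076-45864325 on the plus strand for FOXA3, chr20:44400989-44401238 on the plus strand for the downstream start site of HNF4A and chr12:100503110-100503359 on the plus strand for NR1H4.
FOXA1: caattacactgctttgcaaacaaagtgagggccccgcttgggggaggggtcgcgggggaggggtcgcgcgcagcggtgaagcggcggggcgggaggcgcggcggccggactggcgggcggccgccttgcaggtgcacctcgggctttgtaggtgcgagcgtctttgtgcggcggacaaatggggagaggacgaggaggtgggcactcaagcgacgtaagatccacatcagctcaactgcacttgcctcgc
FOXA3: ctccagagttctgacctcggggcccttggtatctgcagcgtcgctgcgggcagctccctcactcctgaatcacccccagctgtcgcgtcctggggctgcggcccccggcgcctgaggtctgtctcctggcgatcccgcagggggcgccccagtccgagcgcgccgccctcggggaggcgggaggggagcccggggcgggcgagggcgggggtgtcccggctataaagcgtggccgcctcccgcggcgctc
HNF4A: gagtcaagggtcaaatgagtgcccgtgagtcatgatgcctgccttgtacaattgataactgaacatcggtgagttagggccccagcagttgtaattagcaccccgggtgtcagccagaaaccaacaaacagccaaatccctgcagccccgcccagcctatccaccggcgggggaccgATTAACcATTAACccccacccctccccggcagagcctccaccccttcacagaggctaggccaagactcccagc
NR1H4: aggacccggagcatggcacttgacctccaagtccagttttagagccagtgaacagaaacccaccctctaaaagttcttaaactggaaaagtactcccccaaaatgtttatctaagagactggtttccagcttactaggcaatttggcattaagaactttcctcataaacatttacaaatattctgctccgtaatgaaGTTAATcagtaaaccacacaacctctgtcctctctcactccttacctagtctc

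RefSeq promoters were found for 6 of the 9 members, with 2 start sites each for HNF4A and NR5A2, giving 8 regions of 300 bases that reach 50 bases past the start site. The GRHL motif AACCGGTT was in 0 of these 8 regions and in 0.134% of all 35116 promoters of the same length, searched on both strands. The more permissive AACCNGTT, which includes the former, was also in 0 of the 8 and in 1.73% of all promoters. GTTAAT was found in 3 of the 8, compared with 6.88% of all, namely in NR1H4, in the downstream HNF4A start site and in the downstream NR5A2 start site. In HNF4A the letters occurred at 2 places, beginning 73 and 66 bases before the start site, whereas in NR1H4 they began 53 bases before it. The FOXA motif TGTTTAC was found in 1 region, 105 bases before the downstream NR5A2 start site, and in 3.42% of all promoters. CAAAGTCCA for HNF4, TTGCGCAA for C/EBP and CAAGGTCA for LRH-1 were in 0 of the 8 regions and in 0.384%, 0.151% and 1.28% of all promoters. A match of letters describes a sequence and is not evidence of binding, and the absence of letters concerns these windows alone. The regions also differed in base composition, since FOXA1, FOXA3 and CEBPA contained 34, 37 and 50 CpG dinucleotides, against a median of 14 over all promoters, whereas NR1H4 contained 2.

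The levels of the 9 factors in HepG2 cells, averaged over the 8 libraries, spanned from 6.56 to 11.27 on the log2 scale per length. HNF4A was the most abundant, with a mean of 11.27 and library values between 11.12 and 11.42, and lay above 95.9% of the genes in the table. FOXA1 followed at 10.91, above 94.2% of genes. The step down to the next factor was large, since NR0B2 had a mean of 9.01, which was 1.90 below FOXA1. NR0B2 and PROX1, at 9.01 and 8.94, had overlapping ranges over the libraries. FOXA3 had a mean of 8.64 and FOXA2 of 7.70, and the range of each did not overlap those of its neighbours. These ranges hold only the differences within pairs. Whether levels are separated beyond the variation between replicates cannot be judged from them. NR1H4, NR5A2 and CEBPA were the least abundant, at 6.68, 6.64 and 6.56, and their ranges overlapped. They lay near the middle of all genes, above 49.6%, 49.2% and 48.7% of them. The level of CEBPA is uncertain, because 43.9% of its exon bases (GENCODE release 44) are shared with other annotated genes and reads over shared bases cannot be assigned in unstranded counting. This share was at most 1.83% for the other 8 members, in PROX1.

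**Figure D1:**
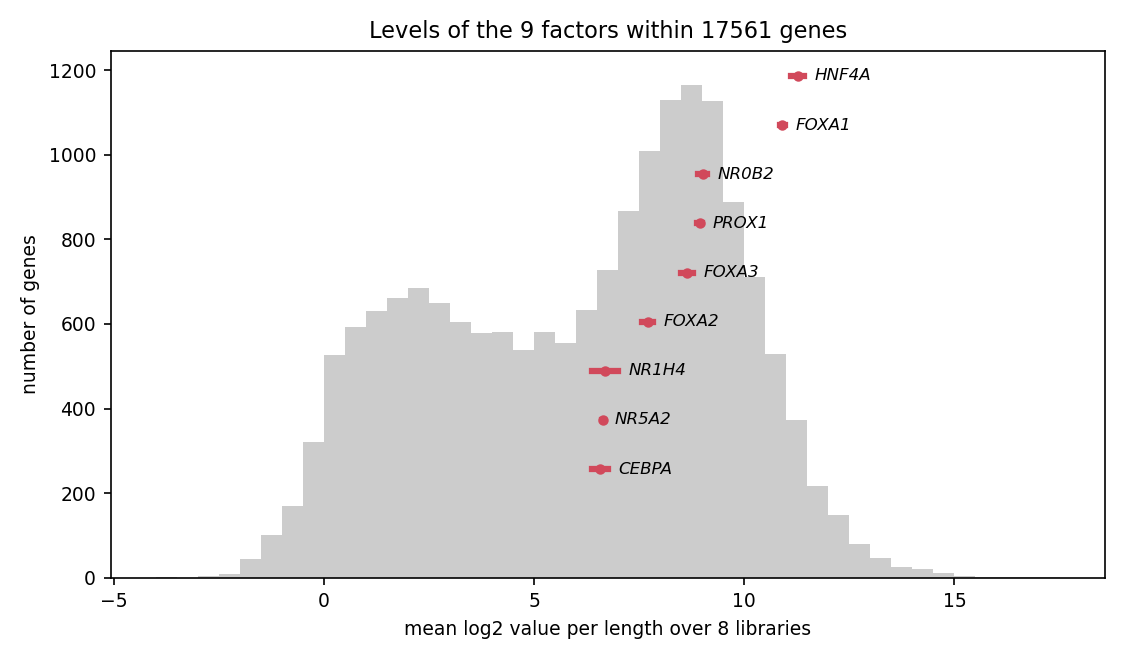
Mean log2 value per length over 8 libraries for the 17561 genes (grey histogram, x axis in log2 units, y axis in number of genes) and for the 9 liver-enriched factors (red point, mean; red bar, lowest to highest library, placed at arbitrary heights). HNF4A and FOXA1 lay at the upper end, at 11.27 and 10.91, whereas NR1H4, NR5A2 and CEBPA lay near the middle of all genes.

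Upon GRHL2 expression, 0 of the 9 factors passed the threshold of a limma adjusted p under 0.05, and 0 of the 9 had an unadjusted p under 0.05. Over all genes, 2.19% were called in either direction and 16.0% had an unadjusted p under 0.05 (9.17% in the higher and 6.78% in the lower direction). The log2 FC of the 9 members ranged from -0.13 to 0.11, with 6 below 0 and 3 above 0, and their median was -0.03, compared with 0.0017 over all genes and -0.01 over genes with a mean value of at least 5. The 95% intervals of the 9 members reached down to 0.827-fold, for FOXA3, and up to 1.30-fold, for NR1H4. A p that misses the threshold does not show that the mRNAs were equal, and these intervals give the sizes of change compatible with the fit. The p-values and intervals rest on the 4 pairs and on a variance that limma moderates toward genes of similar level. For FOXA1, the standard error was 0.0497, compared with 0.0250 without the eBayes trend on level.

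**Figure D2:**
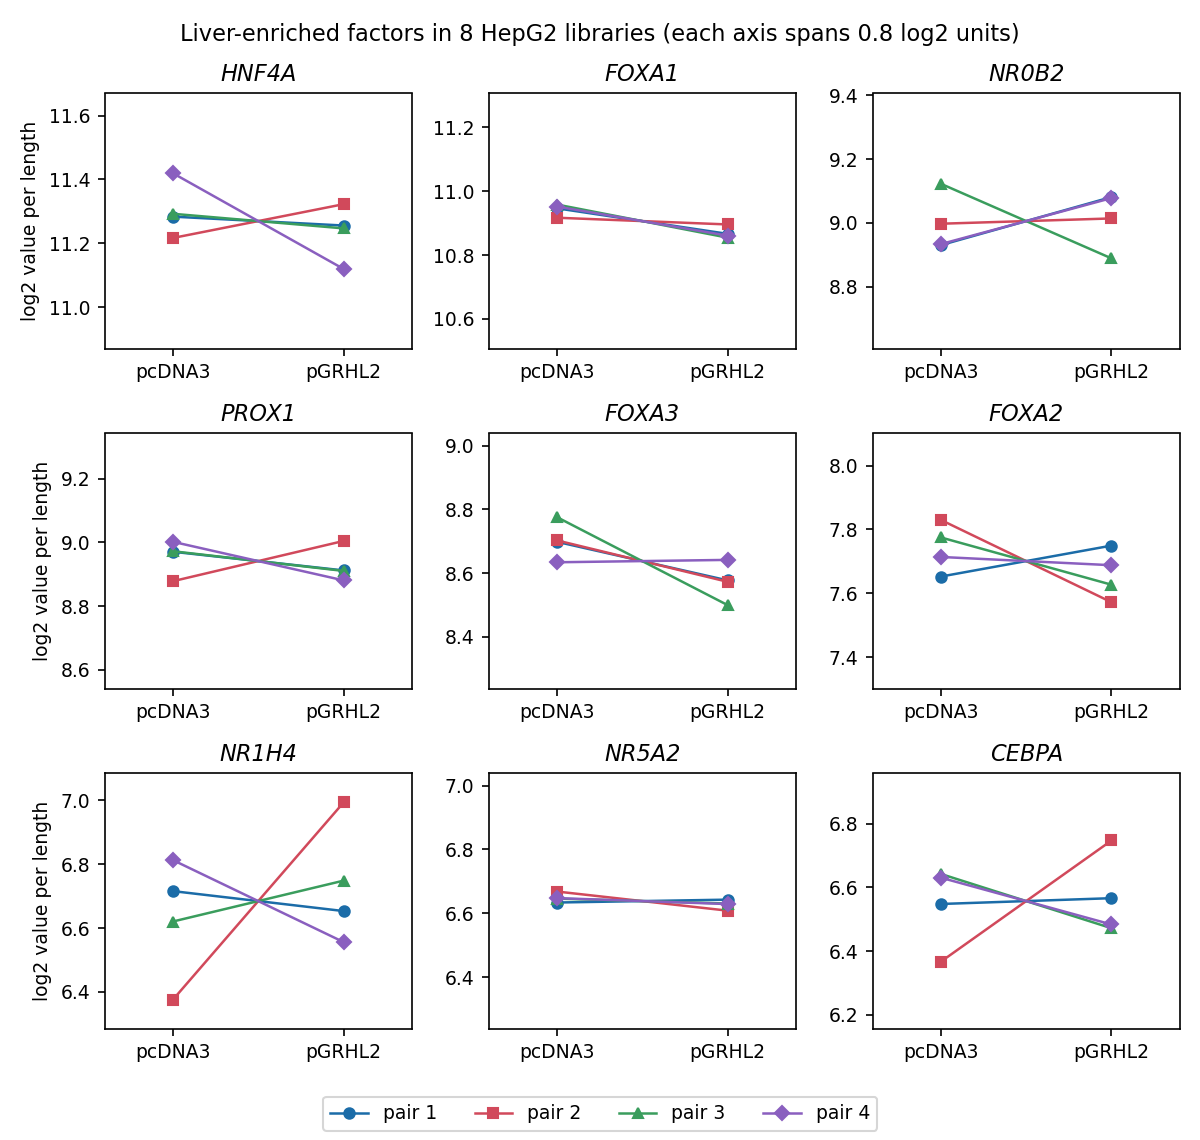
Log2 value per length of each factor in the 4 pcDNA3 and 4 pGRHL2 libraries (y axis, spanning 0.8 log2 units in each panel), with lines joining same-numbered libraries (pairs 1 to 4 by color and symbol). Lines go down in all 4 pairs for FOXA1, and cross in opposite directions for the other 8 factors.

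HNF4A, on chromosome 20 from 44355699 to 44432845, plus strand (hg38), had values of 11.26, 11.32, 11.25 and 11.12 in pGRHL2 libraries 1 to 4. In pcDNA3 libraries 1 to 4 it had 11.28, 11.22, 11.29 and 11.42. Both groups overlapped, and the pair with the widest gap was pair 4, in which pGRHL2 was lower by 0.30 in absolute terms, while pGRHL2 was higher in pair 2. The log2 FC was -0.07 ± 0.17 (SD over 4 pairs), which is 0.955-fold with a 95% interval from 0.857 to 1.06, and the limma adjusted p was 0.710. Without replicate 4 the log2 FC of HNF4A was 0.01.

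FOXA1, on the minus strand of chromosome 14 between 37589552 and 37596059, had values of 10.87, 10.90, 10.85 and 10.86 in pGRHL2 libraries 1 to 4. Its values in pcDNA3 libraries 1 to 4 were 10.95, 10.92, 10.96 and 10.95. All 4 pGRHL2 values were below all 4 pcDNA3 values, a lack of overlap that was also seen in 24.0% of all genes and in 22.5% of genes with a mean value of at least 5. By the mirroring, this lack of overlap restates that all 4 pairs differed in the same direction, and it is not separate evidence. The log2 FC was -0.07 ± 0.04 (SD over 4 pairs; adjusted p = 0.533 by limma), or 0.950-fold with a 95% interval from 0.878 to 1.03. FOXA1 was lower in 4 of 4 pairs, as were 10.5% of all genes and 13.6% of those averaging at least 5, while 13.4% of all genes were higher in 4 of 4 pairs, and its pair differences ranged from -0.10 to -0.02. The SD of its pair differences exceeded that of only 20.9% of genes.

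FOXA2 and FOXA3, which encode close relatives of FOXA1 with a shared forkhead domain, did not pass the test either. FOXA3, on the plus strand of chromosome 19 between 45863989 and 45873797, had values of 8.58, 8.57, 8.50 and 8.64 in pGRHL2 libraries 1 to 4. The values in pcDNA3 libraries 1 to 4 were 8.70, 8.70, 8.78 and 8.63. The groups overlapped because pGRHL2 was higher in pair 4, by 0.0075, whereas pairs 1 to 3 differed by -0.12, -0.13 and -0.28. The log2 FC of FOXA3 was -0.13 ± 0.12 (SD over 4 pairs; adjusted p = 0.367 by limma), and its 95% interval went from 0.827-fold to 1.01-fold. This was the largest absolute log2 FC of the 9 members, exceeding that of 87.4% of genes. Genes with a mean value of at least 5 whose 4 pair differences were most like those of FOXA3 were RAP2A, CMPK1 and TMA16, with root mean square distances of 0.0146, 0.0167 and 0.0169 on the log2 scale. FOXA2, on the minus strand of chromosome 20 between 22580998 and 22585455, had values of 7.75, 7.57, 7.63 and 7.69 in pGRHL2 libraries 1 to 4 and of 7.65, 7.83, 7.77 and 7.71 in pcDNA3 libraries 1 to 4. Its groups overlapped, with pGRHL2 higher in pair 1 and lower in pairs 2 to 4. The log2 FC of FOXA2 was -0.08 ± 0.15 (SD over 4 pairs; adjusted p = 0.621 by limma), and its 95% interval went from 0.848-fold to 1.05-fold.

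CEBPA, on the minus strand of chromosome 19 between 33299934 and 33302534, had values of 6.57, 6.75, 6.47 and 6.48 in pGRHL2 libraries 1 to 4. In pcDNA3 libraries 1 to 4 its values were 6.55, 6.37, 6.64 and 6.63. The library with the highest value was pGRHL2 library 2, which by the mirroring makes pcDNA3 library 2 the lowest, and the groups overlapped. The log2 FC was 0.02 ± 0.25 (SD over 4 pairs; adjusted p = 0.950 by limma), with a 95% interval from 0.883-fold to 1.16-fold. Without replicate 2 its log2 FC was -0.10 (adjusted p = 0.609 by limma).

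**Figure D3:**
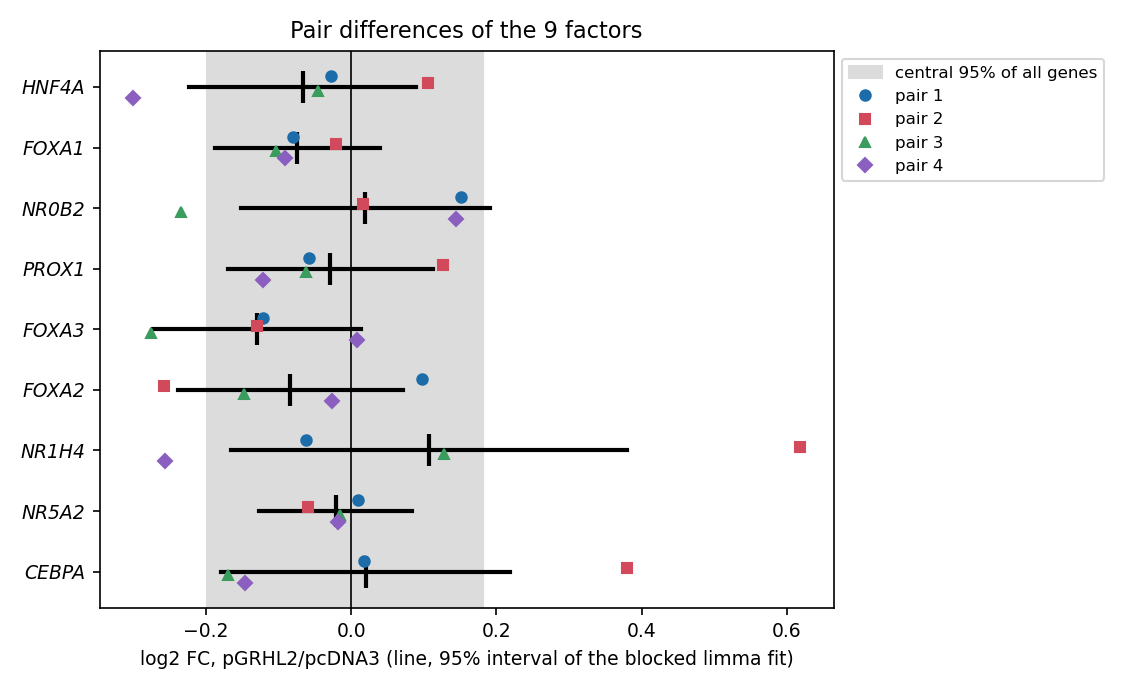
Differences of the log2 values (pGRHL2 minus pcDNA3, x axis) of the 9 factors in pairs 1 to 4 (colored symbols), with the mean (vertical tick) and its 95% interval from the blocked limma fit (black line). The grey band spans the central 95% of log2 FC of all genes, from -0.20 to 0.18, and the mean of each of the 9 factors lies within it.

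Among the nuclear receptors of the bile acid circuit, NR1H4 was the most variable. On the plus strand of chromosome 12 between 100473708 and 100564414, NR1H4 had values of 6.65, 6.99, 6.75 and 6.56 in pGRHL2 libraries 1 to 4 and of 6.72, 6.38, 6.62 and 6.81 in pcDNA3 libraries 1 to 4. The direction differed between pairs, since pairs 2 and 3 gave 0.62 and 0.13, whereas pairs 1 and 4 gave -0.06 and -0.26. Its log2 FC was 0.11 ± 0.38 (SD over 4 pairs; adjusted p = 0.741 by limma), with a 95% interval from 0.891-fold to 1.30-fold. The SD of its pair differences exceeded that of 99.4% of genes, and without replicate 2 its log2 FC was -0.06 (adjusted p = 0.830 by limma). Genes whose pair differences were most like those of NR1H4, among those averaging at least 5, were SLC5A9, METTL7A and the complement gene C5. Their root mean square distances to NR1H4 were 0.080, 0.092 and 0.095, and their differences in pair 2 were 0.51, 0.64 and 0.79.

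NR5A2, on the plus strand of chromosome 1 between 200027614 and 200177420, was the most stable member. It had values of 6.64, 6.61, 6.63 and 6.63 in pGRHL2 libraries 1 to 4 and of 6.63, 6.67, 6.65 and 6.65 in pcDNA3 libraries 1 to 4. The 8 values spanned 0.060, less than for any other member, and the groups overlapped in library 1. The log2 FC was -0.02 ± 0.03 (SD over 4 pairs; adjusted p = 0.890 by limma), with a 95% interval from 0.916-fold to 1.06-fold.

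NR0B2, on the minus strand of chromosome 1 between 26911489 and 26913975, had values of 9.08, 9.01, 8.89 and 9.08 in pGRHL2 libraries 1 to 4 and of 8.93, 8.997, 9.12 and 8.93 in pcDNA3 libraries 1 to 4. It was higher in 3 of 4 pairs, but pair 3 differed by -0.23 and the groups overlapped. The log2 FC was 0.02 ± 0.18 (SD over 4 pairs; adjusted p = 0.944 by limma), with a 95% interval from 0.9002-fold to 1.14-fold, and its log2 FC was -0.02 without replicate 1 and without replicate 4. PROX1, on the plus strand of chromosome 1 between 213983181 and 214041510, had values of 8.91, 9.004, 8.91 and 8.88 in pGRHL2 libraries 1 to 4 and of 8.97, 8.88, 8.97 and 9.002 in pcDNA3 libraries 1 to 4. PROX1 was lower in pairs 1, 3 and 4 and higher in pair 2, with overlapping groups. Its log2 FC was -0.03 ± 0.11 (SD over 4 pairs; adjusted p = 0.888 by limma), with a 95% interval from 0.889-fold to 1.08-fold, and without replicate 4 its log2 FC was 0.0019.

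The pairs did not behave alike. Of the 9 factors, 4 were higher in pGRHL2 in pair 1 and 5 in pair 2, but 1 in pair 3 and 2 in pair 4. The median difference of the 9 was -0.03, 0.02, -0.10 and -0.09 in pairs 1 to 4, while that of all genes stayed between 0.00078 and 0.0059. Taken with its sign, the difference was highest in pair 2 for 5 of the 9 factors, compared with 25.8% of all genes. These were HNF4A, FOXA1, CEBPA, NR1H4 and PROX1. For FOXA1, lower in all 4 pairs, this was the smallest decrease, at -0.02, and for HNF4A the widest gap was in pair 4, at -0.30. Pair 2 was singled out after its values had been seen. Hepatocyte markers moved in the same pair, since pair 2 held the highest signed difference for 7 of 8, SERPINA1 excepted. Their median difference reached 0.33 there, against -0.0056 (pair 1), -0.04 (pair 3) and -0.12 (pair 4). The mean level of the 8 markers lay between 13.31 and 13.53 in pGRHL2 libraries and between 13.16 and 13.37 in pcDNA3 libraries. The highest of these values was in pGRHL2 library 2, which by the mirroring places the lowest in pcDNA3 library 2. The part of this shift in the values of NR1H4 and CEBPA was not tested. In bulk RNA, fewer cells with a given program and less RNA per cell cannot be told apart.

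**Figure D4:**
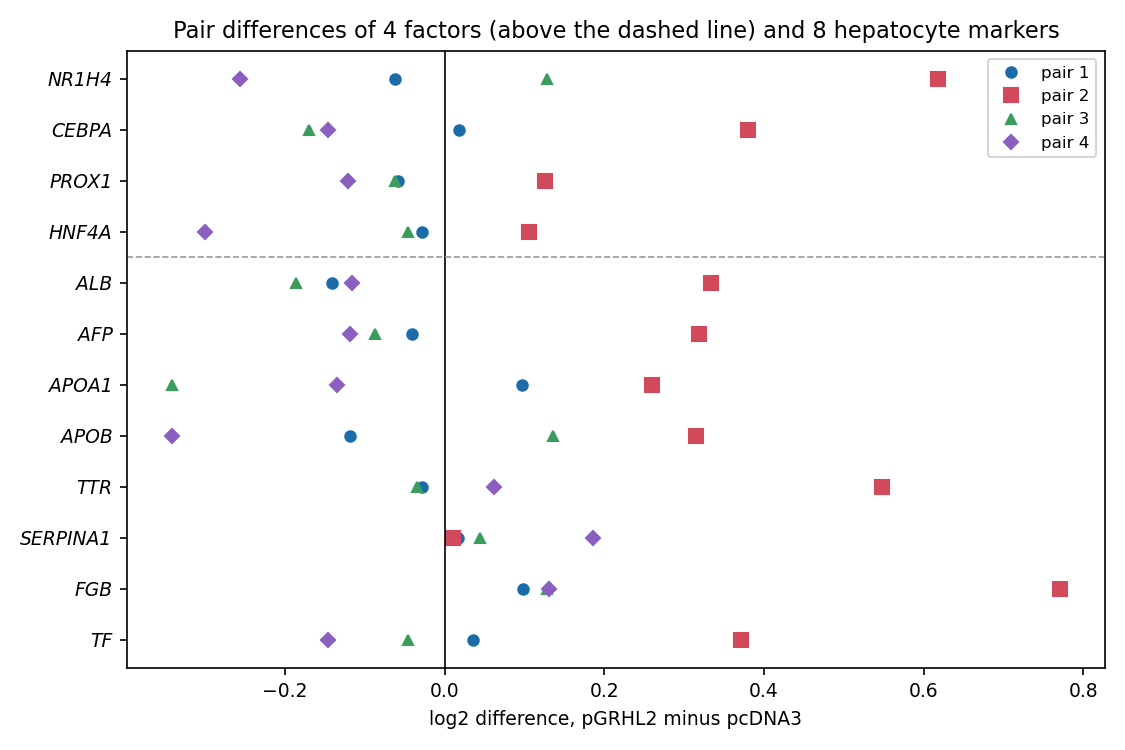
Differences of the log2 values (pGRHL2 minus pcDNA3, x axis) in pairs 1 to 4 (colored symbols) for NR1H4, CEBPA, PROX1 and HNF4A and for the 8 hepatocyte markers. The red squares of pair 2 lie furthest to the right in all genes shown except SERPINA1, at 0.62 for NR1H4 and 0.77 for FGB. For the 4 factors this follows from their choice, since each has its highest signed difference in pair 2. The factors not shown differed in pair 2 by -0.02 (FOXA1), -0.26 (FOXA2), -0.13 (FOXA3), -0.06 (NR5A2) and 0.02 (NR0B2). For FOXA2 and NR5A2 this was the lowest of their pair differences.

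Other liver-enriched factors were examined in a list of 18 genes, all of them in the table. Of these, 2 were called lower in pGRHL2 and 0 were called higher, while 0.501% of all genes, and 0.746% of those averaging at least 5, were called lower and 1.69% were called higher. The median log2 FC of the list was -0.09, compared with 0.0017 over all genes. CREB3L3, a liver and intestine bZIP factor of fasting metabolism, fell with a log2 FC of -0.45 ± 0.06 (SD over 4 pairs; adjusted p = 0.0054 by limma). Its values in pGRHL2 libraries 1 to 4 were 7.37, 7.31, 7.33 and 7.29, all below the 7.73, 7.79, 7.77 and 7.81 of pcDNA3 libraries 1 to 4. GATA4, a zinc finger factor of early liver development, had a log2 FC of -0.28 ± 0.08 and passed narrowly, with a limma adjusted p of 0.0497. The call of GATA4 was lost when any replicate was left out (limma adjusted p from 0.072 to 0.214), and that of CREB3L3 was kept in each of these fits (0.030 to 0.036) but missed the threshold without the eBayes trend (0.055). XBP1, a factor of the unfolded protein response, had the highest log2 FC of the list, at 0.07 ± 0.13 (adjusted p = 0.623 by limma). An unadjusted p under 0.05 in the lower direction was found for 6 of the 18, compared with 6.78% of all genes and 9.31% of genes with a mean value of at least 5.

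The other members of the nuclear receptor family were taken as a list of 44 genes, of which 37 were in the table. None of the 37 was called lower by limma, 8 had an unadjusted p under 0.05 in that direction and 5 in the higher direction. Over all genes these shares were 6.78% and 9.17%, and the lower share was 9.31% among genes averaging at least 5. The median log2 FC of the 37 was -0.01, against 0.0017 over all genes. NR1D1, a receptor of the circadian clock, had the lowest log2 FC of receptors with a mean value of at least 5, at -0.27 ± 0.25 (adjusted p = 0.171 by limma). NR4A1, an immediate early gene, had the highest, at 0.15 ± 0.11 (adjusted p = 0.209 by limma).

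Genes known as targets of the 9 factors were compared next, and these lists share some genes with each other and with the hepatocyte markers. Of 17 genes of the FXR, SHP and LRH-1 circuit in the table, 0 were called by limma, and the median log2 FC was 0.02. An unadjusted p under 0.05 was found for 4 of the 17, all in the higher direction. Over all genes, 2.19% were called and 16.0% had an unadjusted p under 0.05, with 9.17% in the higher and 6.78% in the lower direction. Only 8 of these 17 averaged at least 5, as did 13 of 16 HNF4A targets and 7 of 10 FOXA and C/EBP targets. SLC51A, which encodes a subunit of the basolateral bile acid exporter induced by FXR, had the highest log2 FC, at 0.26 ± 0.13. SLC51A was higher in 4 of 4 pairs, as were 13.4% of all genes, and had a limma adjusted p of 0.059. FGFR4, the receptor for FGF19, had the lowest of those with a mean value of at least 5, at -0.03 ± 0.20. Of 16 HNF4A target genes, 0 were called by limma, 2 had an unadjusted p under 0.05 and the median log2 FC was -0.0028. The coagulation factor F10 was at the upper end, with a log2 FC of 0.20 ± 0.04 (adjusted p = 0.108 by limma), and MTTP, needed for lipoprotein assembly, at the lower end, with -0.22 ± 0.22 (adjusted p = 0.215 by limma). Of 10 FOXA and C/EBP target genes, 0 were called by limma, 1 had an unadjusted p under 0.05 and the median log2 FC was 0.0040. HP, which encodes haptoglobin, had the highest log2 FC, at 0.30 ± 0.34, and ALB the lowest of those with a mean value of at least 5, at -0.03 ± 0.24. HP differed by 0.80 in pair 2, the pair in which the hepatocyte markers were shifted. Without replicate 2, 1 of the 10 FOXA and C/EBP targets was called by limma, where 137 of 17561 genes were called higher and 13 lower. Without the replicate block 3 of the 17 FXR, SHP and LRH-1 targets and 2 of the 16 HNF4A targets were called, compared with 18.5% of all genes in that fit.

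**Figure D5:**
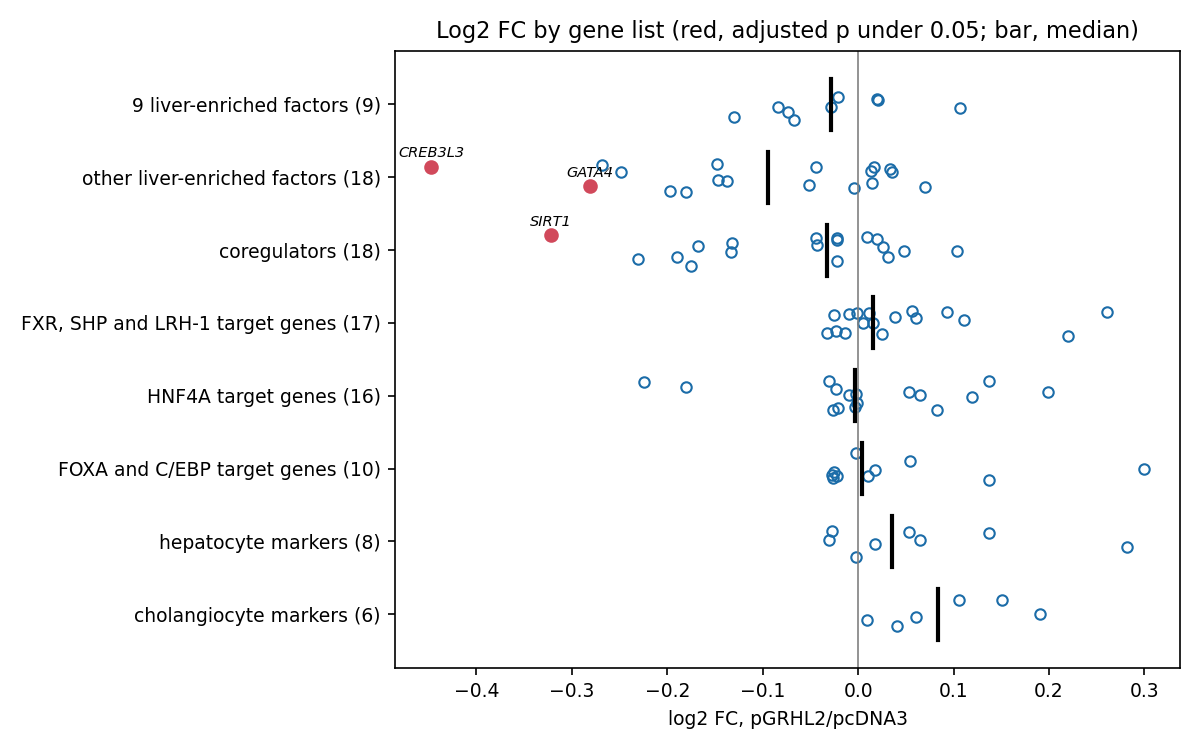
Log2 FC (pGRHL2/pcDNA3, x axis) of the measured genes of each list shown (number of genes in parentheses), with the median of the list as a black bar and genes with a limma adjusted p under 0.05 in red. The 9 liver-enriched factors hold 0 red points, whereas CREB3L3 and GATA4 stand at the lower end of the other liver-enriched factors, at -0.45 and -0.28.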

How the data were processed

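RNA-seq values of 4 pGRHL2 and 4 pcDNA3 libraries were used, with groups and replicate numbers taken from the sample titles. As the study describes it, the authors aligned reads with Hisat2 (hg38), counted exonic reads with HTSeq ignoring strand, and corrected DESeq2 rlog values for transcript length. The submitters' processing notes name HISAT2 2.2.1, HTSeq 0.9.1 and DESeq2 1.40.2. The name of the deposited table gives FPKM, whereas the values are on a log2 scale: 3.71% were below 0, and the slope of the mean value against log2 transcript length was -0.835 over 244 genes whose values spanned under 0.02 (-0.081 over all 17537 matched genes). Differences of weakly covered genes are shrunk by rlog. A stray character was removed from 1 value, and 0 columns belonged to other samples.

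Averages of same-numbered libraries were identical over the 4 numbers in 17561 of 17561 genes (largest spread 1.53e-13), a step the sources used here do not describe. The correlation of same-numbered libraries is therefore fixed by construction, and the pairing rests on the replicate numbers and on this structure. Limma 3.58.1 in R 4.3.3 (lmFit, eBayes with trend) was fitted on all genes with the replicate number as a block, leaving 3 residual degrees of freedom, with Benjamini-Hochberg adjustment and a threshold of 0.05. The script was tested on simulated data. Each n = 4 refers to pairs. Other settings were no replicate block, robust eBayes, no eBayes trend, arrayWeights, equal medians, quantile normalization, only genes averaging at least 5, removal of a level trend (spline with 5 degrees of freedom), an adjusted p under 0.01, and leaving out each replicate (both libraries of a number).

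The members, lists and motifs were chosen with earlier results of these data known. The genes named were all 9 members and GRHL2, up to 6 called genes and the highest and lowest log2 FC (mean value of at least 5) of each list, and the 3 genes most like FOXA3 and NR1H4 in their pair differences, as the members with the largest absolute log2 FC and the largest SD. Some genes that this rule names are not reported here. Symbols matched GENCODE release 44 (hg38) for 99.9% of genes, and promoters were taken from RefSeq (GRCh38.p14).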

Additional observations from a re-analysis of the deposited data

Results flagged for a closer look

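Pairs that stood apart were sought through the 4 pair differences of each gene. By the mirroring, these differences cannot show which library of a pair stood apart. Of 32 genes examined, 4 had a gap to the nearest other pair, relative to the whole range, above the critical value of Dixon, where about 1 in 20 is given by chance, and 0 of the 9 liver-enriched factors were among them. In pair 2, XBP1 differed by 0.263 against a median of 0.01 in the other pairs, ALB by 0.333 against -0.14 and FGB by 0.771 against 0.13. In pair 3, IFIT2, an interferon-induced gene, differed by 0.365 against -0.33.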

How the results depend on the processing

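The number of the 9 factors called was 0 under all settings run. Without the replicate block, FOXA1 and FOXA3 had limma adjusted p of 0.052 and 0.054, and 1821 higher and 1427 lower genes were called in place of 297 and 88, since the fit without the block counts the removed pair means as residual degrees of freedom. Higher and lower calls numbered 4 and 2 without the eBayes trend, 503 and 221 with arrayWeights, 184 and 57 after quantile normalization, and 77 and 10 at the stricter threshold of 0.01. With genes averaging at least 5, higher calls were 63, against 81 lower, and with the level trend removed they were 191. When replicates were left out, higher calls ranged from 79 to 156 and lower calls from 8 to 68. The sign of the log2 FC turned when a replicate was left out for HNF4A (-0.125 to 0.0108), CEBPA (-0.0996 to 0.0838), NR1H4 (-0.0638 to 0.228), NR0B2 (-0.0244 to 0.104) and PROX1 (-0.0804 to 0.00194), all with no call. FOXA1, FOXA2, FOXA3 and NR5A2 kept a negative log2 FC in all 12 alternatives. Some of these cannot change a log2 FC, namely no replicate block, robust eBayes, no eBayes trend and only genes averaging at least 5. FOXA1 and FOXA3 had unadjusted p of 0.032 and 0.048 without the eBayes trend, and FOXA3 had 0.027 without replicate 4. The call of CREB3L3 was lost without the eBayes trend (limma adjusted p of 0.055), and SIRT1 and GATA4 kept theirs in 6 and 5 of 12 alternatives. Lists with 0 calls gained some in other fits. Without the replicate block these were 3 FXR, SHP and LRH-1 targets, 2 HNF4A targets, 1 cholangiocyte marker, 2 markers of other liver cells and 1 interferon or heat shock gene. With arrayWeights they were 1 FXR, SHP and LRH-1 target and 1 marker of other liver cells, and without replicate 2 they were 1 FOXA and C/EBP target and 1 hepatocyte marker. Over all 17561 genes, the fit without replicate 2 called 137 higher and 13 lower. For the remaining shifts, the cause was not tested. With 4 pairs and no read counts, depth could not be weighed.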

Other observations

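Coregulators that act with these factors were examined as a list of 18 genes, all in the table. SIRT1, a deacetylase that acts on FXR, was called lower with a log2 FC of -0.32 ± 0.14 (SD over 4 pairs; adjusted p = 0.048 by limma), and 0 were called higher, compared with 0.501% of all genes called lower (0.746% of those averaging at least 5). Another 4 had an unadjusted p under 0.05 in the lower direction, which 6.78% of all genes had (9.31% of those averaging at least 5). They were the acetyltransferases EP300 (-0.23 ± 0.25) and CREBBP (-0.19 ± 0.22), the coactivator NCOA2 (-0.17 ± 0.09) and the arginine methyltransferase CARM1 (-0.13 ± 0.06), named after their values were seen. Without replicate 1 the limma adjusted p of SIRT1 was 0.244.

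The cholangiocyte markers gave 6 of 6 log2 FC above 0 with 0 calls by limma, a median of 0.08 and 1 gene with an unadjusted p under 0.05, KRT7 (0.19 ± 0.12). SOX9 had the lowest of those with a mean value of at least 5, at 0.04 ± 0.08. Over all genes, 9042 of 17561 log2 FC were above 0, 2.19% were called and 16.0% had an unadjusted p under 0.05. Among 4 measured markers of other liver cells, 0 were called by limma, with 1 unadjusted p under 0.05, COL1A1 being highest (0.20 ± 0.10) and PDGFRB lowest (-0.0058 ± 0.16). Of 8 interferon and heat shock genes, 0 were called by limma and 1 had an unadjusted p under 0.05. OAS1 (0.17 ± 0.35) and IFIT2 (-0.16 ± 0.35) were at the ends of that list. Among the 8 hepatocyte markers 0 were called by limma and 1 had an unadjusted p under 0.05, with FGB highest (0.28 ± 0.33) and APOA1 lowest (-0.03 ± 0.26). Without replicate 2, 1 of these 8 was called, where 137 of 17561 genes were called higher and 13 lower.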
